A study of Mus musculus with 8 samples.

Results

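Antioxidant enzymes and the targets of the transcription factor NRF2 were followed in white skeletal muscle of mice homozygous for a Pus1 mutation, as a group of 33 genes out of 20972 gene symbols that could be named on the array. The genes were taken by name: the NRF2 factor and its partner KEAP1, the enzymes of glutathione and thioredoxin metabolism, the peroxiredoxins, the superoxide dismutases, catalase, the glutathione peroxidases and a set of glutathione transferases. All 33 were represented, by 46 probes, of which 45 were measured above background in all 8 animals and tested. The remaining probe, a further one for Prdx6, was not well above background in any animal, and no probe was saturated. A single probe stood for 23 genes, and for the other 10 the brightest probe is described and the rest are given beside it.

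The study set 4 homozygous Pus1 mutants (2 females and 2 males) against 4 wild type mice (2 females and 2 males), all 14 to 16 weeks old and backcrossed for 5 generations to C57BL/6J. The Pus1 enzyme, pseudouridine synthase 1, changes uridine to pseudouridine in cytosolic and mitochondrial tRNAs; the sources used here do not state which part of the gene is lost. RNA came from the white portion of the gastrocnemius, a fast calf muscle, and each of 4 arrays carried 1 mutant and 1 wild type of the same sex, one labelled with Cy3 and the other with Cy5; pairs 1 and 2 were male and pairs 3 and 4 female.

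NRF2, the product of Nfe2l2, is held in the cytoplasm by KEAP1 and broken down there. When reactive cysteines of KEAP1 are modified by oxidants or electrophiles, NRF2 escapes, enters the nucleus and, with a small MAF protein, binds antioxidant response elements near genes for glutathione synthesis, quinone reduction, heme breakdown and thioredoxin recycling. Muscle makes superoxide and hydrogen peroxide in its mitochondria and at its membranes during contraction, and dismutases, catalase, peroxiredoxins and glutathione peroxidases remove them in turn.

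The promoters of these genes were searched for the invariant letters of the antioxidant response element, written TGACNNNGC, and for the related TGAGNNNGC, on both strands of windows from 250 bases before to 50 bases after the annotated start (RefSeq, build GRCm38.p6). Where the 2 patterns are read on opposite strands their matches can overlap. A window was available for 27 of the 33 genes, and 8 of them, 29.6%, held a match, against 30.8% of 27025 genes with a window, so the share was near that of all genes. The 8 were Gclm, Gstp1, Nfe2l2, Prdx1, Sod1, Srxn1, Txn2 and Txnrd1. Nqo1 held none in this window. Hmox1, Gclc, Gsr, Prdx6, Sod3 and Gsta4 had no window and were not searched. The windows with more than 1 match are printed 5′ to 3′ on the strand of the gene, with the matches in capitals, because they show what such an element looks like in the genes whose values follow; a match is a run of letters and not a measured binding site. They lie at chr2:152105274-152105573 (Srxn1, plus strand), chr4:116685349-116685648 (Prdx1, plus strand) and chr19:4037863-4038162 (Gstp1, minus strand).
Srxn1: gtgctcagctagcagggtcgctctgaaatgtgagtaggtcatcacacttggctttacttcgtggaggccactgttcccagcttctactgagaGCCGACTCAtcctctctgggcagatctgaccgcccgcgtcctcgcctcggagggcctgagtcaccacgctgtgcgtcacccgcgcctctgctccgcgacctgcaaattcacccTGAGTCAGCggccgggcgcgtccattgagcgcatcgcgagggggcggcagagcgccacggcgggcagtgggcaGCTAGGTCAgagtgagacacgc
Prdx1: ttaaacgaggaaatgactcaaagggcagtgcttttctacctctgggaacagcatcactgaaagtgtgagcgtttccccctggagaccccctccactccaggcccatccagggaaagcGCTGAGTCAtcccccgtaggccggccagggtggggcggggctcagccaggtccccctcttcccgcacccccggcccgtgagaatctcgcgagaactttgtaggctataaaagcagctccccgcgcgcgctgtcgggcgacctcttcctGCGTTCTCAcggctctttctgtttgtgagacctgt
Gstp1: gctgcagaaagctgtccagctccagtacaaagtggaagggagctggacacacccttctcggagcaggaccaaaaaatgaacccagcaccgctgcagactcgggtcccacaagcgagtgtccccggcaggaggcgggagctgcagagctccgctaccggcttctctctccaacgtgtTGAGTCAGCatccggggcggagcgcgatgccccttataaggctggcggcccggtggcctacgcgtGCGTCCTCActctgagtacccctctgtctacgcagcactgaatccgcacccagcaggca
In Srxn1 the match TGAGTCAGC began at position −45 relative to the start, and in Gstp1 the same letters began at −74. In Prdx1 the match TGACTCAGC lay on the opposite strand, with its leftmost base at −133.

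The genotype labels were checked first with the targeted gene. Pus1 had log2 intensities of 6.75, 6.92, 6.49 and 6.85 in mutants 1 to 4, against 8.06, 8.36, 8.15 and 8.29 in wild types 1 to 4. Its probe was well above background in 0 of 4 mutants and 4 of 4 wild types, so that the signal was at least 2.76-fold lower in mutants (unadjusted p = 8.01e-06, adjusted p = 0.0786 in limma). The share of spots well above background was 38.0% to 46.5% per sample, and having only 4 arrays limits how precise any value can be. All 11 markers of fast and glycolytic fibres were measured in the tissue labelled white muscle, with a log2 of the summed intensity of 20.99 to 21.57 in mutants, against 20.74 to 21.35 in wild types. That sum is set mostly by the brightest probes. The log2 ratio of mutant over wild type was above 0 for 9 markers and below 0 for 2, with 0 past the test. Myh1, 1 of the 2, was at −1.29 and lower in 4 of 4 pairs (unadjusted limma p of 0.00226, adjusted p = 0.990).

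No antioxidant or NRF2 target gene differed between mutants and wild types past the threshold. Of 45 member probes, 0 had an adjusted p under 0.05 in limma with Benjamini-Hochberg adjustment, as had 0% of all 23098 tested probes, and the adjusted p of every member was 0.9998. Even without adjustment, 0 member probes had a p under 0.05, against 3.35% of all probes. Log2 ratios of mutant over wild type ran from −0.24 (Gstm1) to 0.26 (Prdx4), with a median of 0.012 over the 33 genes, against 0.00060 over 11893 named genes. Their median size, 0.078, was close to the 0.077 of all named genes. The mutant mean was above the wild type mean for 21 genes and below it for 12, a share of 63.6% above, against 50.2% of all named genes. With median centring of the arrays in place of loess that split turned to 9 above and 24 below, 27.3% above, so no direction of the group is given. That setting also moved the median of all probes, from 0.0013 to −0.064, beside a members' median of −0.070. The share of all genes above 0 was not computed for it. With pair 3 left out 245 of all probes passed, and still 0 member probes.

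How large a change in normalized intensity could have been missed is set, for each gene alone, by the intervals. The 95% interval of the log2 ratio lay within a 1.5-fold change in either direction for 31 of the 33 genes, the exceptions being Sod3 and Srxn1, and within a 2-fold change for all 33. Its half-width ran from 0.22 to 0.55. The offset of 50 added to the intensities draws the ratios of dim probes toward 0, so for these a larger RNA change could lie within the bounds. Among the dimmer members, Gss, Gclm and Gsta4 averaged 7.62, 7.72 and 8.14 in mutants. Pus1, not well above background in any mutant, still read 6.49 to 6.92 there. The pairs differed among themselves: the median ratio over the 33 genes was −0.041 and −0.065 in male pairs 1 and 2, and 0.062 and 0.063 in female pairs 3 and 4. All named genes had medians of the same signs, −0.013, −0.023, 0.013 and 0.011 in pairs 1 to 4.

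**Figure D1:**
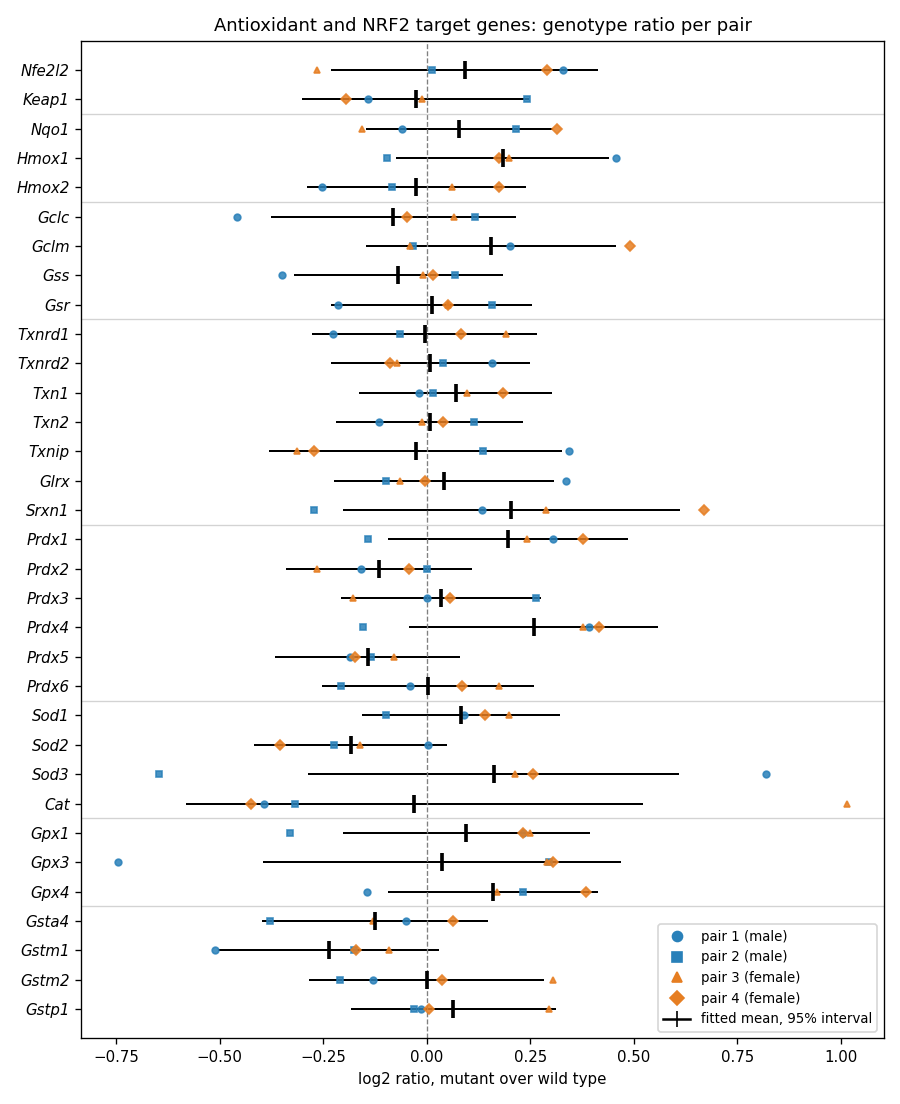
Log2 ratio of mutant over wild type (horizontal axis) for each of the 33 genes, ordered by role, with 1 symbol per pair (blue for males, orange for females), a bar for the fitted mean and a line for its 95% interval. Fitted means lie between −0.24 for Gstm1 and 0.26 for Prdx4, and every interval crosses 0.

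The regulators themselves did not differ between genotypes beyond the spread between pairs. Nfe2l2, which encodes NRF2, had normalized log2 intensities of 10.53, 10.22, 10.23 and 10.30 in mutants 1 to 4, against 10.21, 10.21, 10.50 and 10.01 in wild types 1 to 4. Mutant 1 and wild type 3 were the highest and wild type 4 the lowest, the groups overlapped, and the ratio was 0.092 (SE 0.13), with a 95% interval of −0.23 to 0.41. Keap1, whose product delivers NRF2 to a ubiquitin ligase, had 12.08, 12.47, 12.19 and 11.91 in mutants 1 to 4, against 12.22, 12.23, 12.20 and 12.11 in wild types 1 to 4. All 4 wild types lay inside the range of the mutants, and the ratio was −0.027 (SE 0.11).

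Of the genes for quinone and heme metabolism, Hmox1 and Nqo1 are the targets most used as a readout of NRF2. Nqo1, a quinone reductase, had log2 intensities of 9.31, 9.67, 9.06 and 9.16 in mutants 1 to 4, against 9.37, 9.46, 9.21 and 8.84 in wild types 1 to 4. Mutant 2 was highest and wild type 4 lowest, the groups overlapped, and the ratio of 0.078 (SE 0.091) left an interval of −0.15 to 0.30. Hmox1, the inducible heme oxygenase, had 9.72, 9.04, 8.81 and 8.68 in mutants 1 to 4, against 9.26, 9.13, 8.61 and 8.50 in wild types 1 to 4. Its pairs gave 0.46, −0.095, 0.20 and 0.17, and the groups overlapped, with pair 1 far above pair 4 in both genotypes. Its ratio was 0.18 (SE 0.10) with an unadjusted limma p of 0.129, and a further, dimmer probe gave 0.097. Hmox2, the constitutive heme oxygenase, averaged 11.06 ± 0.16 in mutants, against 11.08 ± 0.10 in wild types (SD, n = 4 each). Its ratio was −0.025, and 0.062 by its further probe.

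Glutathione is built by glutamate-cysteine ligase and glutathione synthetase and kept reduced by glutathione reductase. Gclc, the catalytic subunit of the ligase and a known NRF2 target, had log2 intensities of 9.01, 9.46, 9.05 and 9.10 in mutants 1 to 4, against 9.47, 9.34, 8.98 and 9.14 in wild types 1 to 4. Mutant 1 was 0.46 below its partner while the other 3 pairs differed by no more than 0.12, and the ratio was −0.081 (SE 0.12). Gclm, the modifier subunit and also an NRF2 target, had 7.92, 7.85, 7.39 and 7.74 in mutants 1 to 4, against 7.72, 7.89, 7.43 and 7.25 in wild types 1 to 4. The mutant was higher in pairs 1 and 4 and slightly lower in the others (0.20, −0.032, −0.039 and 0.49), the groups overlapped, and the ratio was 0.15 (SE 0.12). Gss, glutathione synthetase, averaged 7.62 ± 0.12 in mutants, against 7.69 ± 0.11 in wild types (SD, n = 4 each), with a ratio of −0.069. For Gsr, glutathione reductase, the means were 10.75 ± 0.094 in mutants, against 10.74 ± 0.21 in wild types (SD, n = 4 each), and its 2 probes gave ratios of 0.012 and 0.026. The ligase subunits had ratios of opposite sign, each smaller than its own interval.

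**Figure D2:**
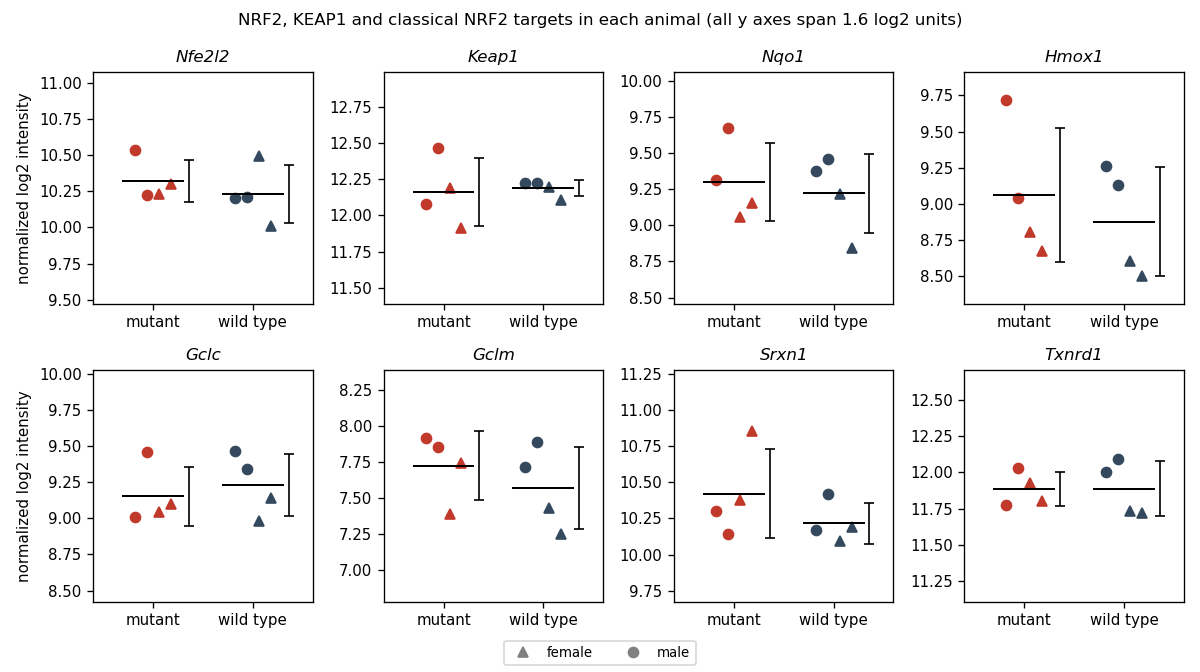
Normalized log2 intensity (vertical axis, each spanning 1.6 log2 units) of Nfe2l2, Keap1 and 6 classical NRF2 targets in each mutant and wild type animal; triangles are females, circles males, lines the group means and error bars the SD (n = 4 each). Mutants and wild types overlap in every panel, and for Hmox1 and Nqo1 the 4 females lie below the 4 males.

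In the thioredoxin system Srxn1 and Txnrd1 are the NRF2 targets. Srxn1, sulfiredoxin, which repairs overoxidized peroxiredoxins, had log2 intensities of 10.30, 10.14, 10.38 and 10.86 in mutants 1 to 4, against 10.17, 10.42, 10.09 and 10.19 in wild types 1 to 4. Mutant 4 stood above the other 7 animals, among which the genotypes were mixed. Its pairs gave 0.13, −0.27, 0.29 and 0.67, and the ratio was 0.20 (SE 0.16) with an interval of −0.20 to 0.61. It was among the 2 genes whose unadjusted p fell under 0.05 once pair 2 was left out, the other being Prdx4. Pair 2 was the only pair below 0 for both genes, so leaving it out was bound to favour a small p. Txnrd1, the cytosolic thioredoxin reductase, had 11.78, 12.03, 11.92 and 11.80 in mutants 1 to 4, against 12.003, 12.09, 11.73 and 11.72 in wild types 1 to 4. The mutant was below its partner in both male pairs and above it in both female pairs, and the ratio was −0.0042 (SE 0.11).

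The other thioredoxin genes differed less between genotypes than within them. Txn1, cytosolic thioredoxin, averaged 12.25 ± 0.18 in mutants, against 12.18 ± 0.16 in wild types (ratio 0.070), and Txn2, its mitochondrial counterpart, 14.24 ± 0.11 in mutants, against 14.23 ± 0.16 in wild types (ratio 0.0069; SD, n = 4 each). Txnrd2, the mitochondrial reductase, averaged 12.29 ± 0.18 in mutants, against 12.28 ± 0.081 in wild types, with a ratio of 0.0091. Glrx, glutaredoxin, which removes glutathione from proteins, averaged 9.36 ± 0.31 in mutants, against 9.32 ± 0.11 in wild types, with a ratio of 0.042. Txnip, a protein that binds and inhibits thioredoxin and restrains glucose uptake, averaged 13.48 ± 0.28 in mutants, against 13.51 ± 0.080 in wild types and gave a ratio of −0.027. Behind that small ratio its pairs gave 0.34, 0.14, −0.31 and −0.27, above 0 in both male and below 0 in both female pairs, and the further probe gave 0.28, −0.021, −0.20 and −0.20 (ratio −0.035).

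Peroxiredoxins reduce hydrogen peroxide with electrons from thioredoxin, and their ratios lay on both sides of 0. Prdx4, a gene of the X chromosome for the form of the endoplasmic reticulum, had log2 intensities of 8.69, 8.32, 8.63 and 8.74 in mutants 1 to 4, against 8.30, 8.47, 8.25 and 8.32 in wild types 1 to 4. Mutants 1, 3 and 4 lay above all 4 wild types and mutant 2 among them. The ratio of 0.26 (SE 0.12) was the highest of the 33, with an interval of −0.040 to 0.56 and an unadjusted limma p of 0.0781. Prdx1, a cytosolic form and an NRF2 target, had 13.19, 13.36, 13.47 and 13.12 in mutants 1 to 4, against 12.89, 13.51, 13.23 and 12.74 in wild types 1 to 4. The mutant was higher in pairs 1, 3 and 4 and lower in pair 2, and the groups overlapped. The ratio was 0.20 (SE 0.12), and the further probe gave 0.21 with a mutant excess in 4 of 4 pairs (unadjusted p = 0.0643).

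Among the other peroxiredoxins Prdx5 and Prdx2 had the lowest ratios. Prdx5, found in mitochondria, peroxisomes and cytosol, had log2 intensities of 12.69, 12.77, 12.99 and 12.73 in mutants 1 to 4, against 12.87, 12.91, 13.07 and 12.90 in wild types 1 to 4. The mutant was the lower one in 4 of 4 pairs (−0.18, −0.13, −0.079 and −0.17), although the ranges overlapped, and the ratio was −0.14 (SE 0.090) with an unadjusted limma p of 0.166. Prdx2, a cytosolic form abundant in red cells, had 13.16, 13.14, 12.75 and 12.82 in mutants 1 to 4, against 13.31, 13.14, 13.01 and 12.86 in wild types 1 to 4. Pair 2 was level and the mutant lower in the other 3, the groups overlapped, and the ratio was −0.12 (SE 0.090). Prdx3, the mitochondrial form, averaged 12.64 ± 0.14 in mutants, against 12.61 ± 0.14 in wild types (SD, n = 4 each), with a ratio of 0.035. For Prdx6, which uses glutathione in place of thioredoxin, the means were 13.28 ± 0.22 in mutants, against 13.28 ± 0.14 in wild types (SD, n = 4 each), and its 3 tested probes gave 0.0034, 0.0050 and −0.022. A ratio of 1 sign in all 4 pairs was seen for 4 member probes, 8.89%, against 9.93% of all probes, a share near that of the array.

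Among the enzymes that remove superoxide and hydrogen peroxide directly, the mitochondrial dismutase had the lowest ratio. Sod2, which sits in the mitochondrial matrix, had log2 intensities of 14.97, 14.90, 14.82 and 14.71 in mutants 1 to 4, against 14.96, 15.12, 14.98 and 15.07 in wild types 1 to 4. Mutants 2, 3 and 4 lay below all 4 wild types, and mutant 1 just above wild type 1. The ratio was −0.18 (SE 0.094), with an interval of −0.41 to 0.047 and an unadjusted limma p of 0.0986. Sod1, the cytosolic copper-zinc enzyme, averaged 14.76 ± 0.18 in mutants, against 14.68 ± 0.30 in wild types (SD, n = 4 each), with a ratio of 0.083.

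Sod3 and catalase had the widest ranges over the 4 pairs of all 33 genes, followed by Gpx3. Sod3, the extracellular dismutase, had log2 intensities of 9.70, 8.65, 9.04 and 9.06 in mutants 1 to 4, against 8.88, 9.30, 8.83 and 8.81 in wild types 1 to 4. Its pairs gave 0.82, −0.65, 0.21 and 0.26, with mutant 1 the highest animal and mutant 2 the lowest, and the ratio was 0.16 (SE 0.18). Cat, catalase, had 9.67, 10.74, 12.23 and 11.88 in mutants 1 to 4, against 10.07, 11.06, 11.21 and 12.30 in wild types 1 to 4. Levels spanned a wide range in both genotypes and were lowest in pair 1. The mutant exceeded its partner in pair 3 and lay below it in the other 3 pairs (−0.39, −0.32, 1.02 and −0.42), for a ratio of −0.030 (SE 0.22). The dimmer probe of Cat gave a ratio of 0.051, with pairs of 0.37, −0.50, 0.23 and 0.11, so the 2 probes differed in sign in pairs 1 and 4 and in the ratio. Without pair 3, the only pair above 0, the ratio of the brighter probe was −0.38, and without pair 1 it was 0.32, so single pairs decided its sign.

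Glutathione peroxidases use glutathione to reduce peroxides. Gpx4, which reduces lipid hydroperoxides in membranes, had log2 intensities of 15.49, 15.42, 15.40 and 15.32 in mutants 1 to 4, against 15.63, 15.19, 15.23 and 14.94 in wild types 1 to 4. Mutants 2, 3 and 4 lay above their partners and mutant 1 below, the groups overlapped, and the ratio was 0.16 (SE 0.10). Gpx3, the secreted form, had 10.99, 11.89, 12.58 and 13.11 in mutants 1 to 4, against 11.74, 11.59, 12.29 and 12.80 in wild types 1 to 4. Pair 1 gave −0.75 while the other 3 pairs gave 0.30, 0.29 and 0.31, for a ratio of 0.037 (SE 0.17). Leaving out pair 1, the only pair below 0, was bound to raise the ratio, to 0.30. Gpx1, the main cytosolic form, averaged 12.94 ± 0.14 in mutants, against 12.84 ± 0.34 in wild types (SD, n = 4 each), with a ratio of 0.096.

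Glutathione transferases join glutathione to electrophiles, and in this family lay the lowest ratio of the 33. Gstm1, a mu-class enzyme induced through NRF2, had log2 intensities of 12.55, 12.76, 12.81 and 12.72 in mutants 1 to 4, against 13.07, 12.93, 12.90 and 12.89 in wild types 1 to 4. Every mutant lay below every wild type, with the nearest animals at 12.81 (mutant 3) and 12.89 (wild type 4). The ratio was −0.24 (SE 0.11), a difference of 0.849-fold, with an interval of −0.50 to 0.028 and an unadjusted limma p of 0.0709. It was the single member probe, 2.22% of 45, whose groups did not overlap, against 1.27% of all probes. Its further probe gave −0.17, with pair 3 of opposite sign. Gsta4, an alpha-class enzyme that clears the lipid peroxidation product hydroxynonenal, had 7.97, 8.10, 8.14 and 8.34 in mutants 1 to 4, against 8.02, 8.48, 8.27 and 8.28 in wild types 1 to 4. The groups overlapped and its ratio was −0.12 (SE 0.11). Gstm2, another mu-class enzyme, had 12.29, 12.82, 13.55 and 13.45 in mutants 1 to 4, against 12.42, 13.03, 13.25 and 13.41 in wild types 1 to 4. Both females of each genotype exceeded the males, the genotypes overlapped, and the 3 probes gave ratios of 0.00015, −0.059 and 0.00057. Gstp1, of the pi class, averaged 13.14 ± 0.19 in mutants, against 13.07 ± 0.075 in wild types (SD, n = 4 each), with ratios of 0.064 and 0.039 by its 2 probes. Gstm1 and Gstm2, both on chromosome 3, are closely alike in sequence, and signal shared between their probes was not tested.

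At a looser limit, an unadjusted p under 0.10, 4 member probes were found, 8.89%, against 7.49% of all probes: those of Gstm1, Prdx4 and Sod2 and the further probe of Prdx1. Across 13 settings or left-out pairs the sign of the ratio was kept in all of them by 10 genes, namely Gclm, Gpx4, Hmox1, Prdx1 and Prdx4, above 0, and Gsta4, Gstm1, Prdx2, Prdx5 and Sod2, below 0. The settings reuse the same arrays, so a kept sign is no separate evidence of a difference. The share of all probes that kept their sign was not computed. The 8 genes with a promoter match had ratios from −0.0042 (Txnrd1) to 0.20 (Srxn1), none past the threshold.

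Markers of fibre types and of other cells also differed between the animals of a pair. All 13 measured markers of slow and oxidative fibres had a ratio below 0, with a median of −1.11 and pair medians of −2.60, 0.87, −1.54 and −1.99, and 0 of them passed the test. The log2 of their summed intensity was 14.5 to 16.4 in mutants, against 16.3 to 17.2 in wild types, and Myh7, the slow myosin, ranged from 7.26 to 12.05 in mutants, against 6.997 to 14.65 in wild types. Erythroid markers gave pair medians of 0.76, −0.64, 0.90 and 1.47, fibroblast markers 1.32, −0.21, 0.051 and 0.54, and adipocyte markers 1.46, −1.08, 0.43 and 0.056. The summed erythroid level, over 9 of 13 listed genes, was 16.5 to 18.7 in mutants, against 15.6 to 17.5 in wild types. The summed fibroblast level, over 8 of 8, was 15.3 to 15.8 in mutants, against 14.9 to 15.7 in wild types, and the adipocyte level, over 5 of 6, was 13.7 to 14.5 in mutants, against 13.5 to 14.2 in wild types. Sod3, at 0.82 in pair 1 and −0.65 in pair 2, had the same sign in each pair as the adipocyte, fibroblast and erythroid medians. So had Gpx1, Hmox1, Prdx1, Prdx4, Sod1 and Srxn1, so these signs were not particular to Sod3. Other marker lists differed from them: the macrophage median in pair 3 (−0.15) and the endothelium median in pairs 1 and 4 (−0.13 and −0.042). The median of the slow and oxidative fibre markers had the opposite sign in every pair. The part of these cells in any ratio was not tested, and in whole muscle fewer cells of a type and less RNA per cell cannot be told apart.

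**Figure D3:**
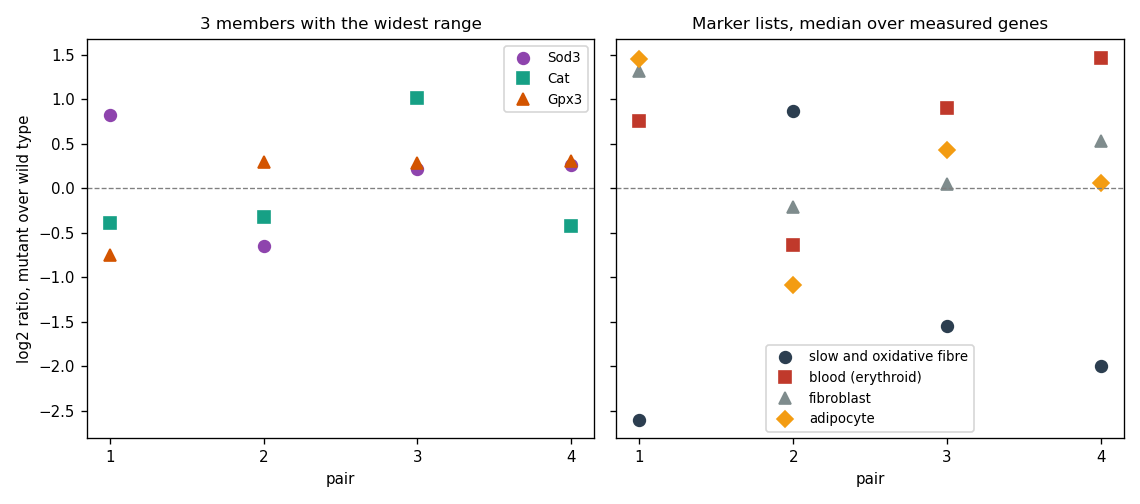
Log2 ratio of mutant over wild type (vertical axis) in each of the 4 pairs (horizontal axis), on the left for the 3 genes with the widest range over the pairs and on the right as the median of 4 marker lists. Sod3 runs from 0.82 in pair 1 to −0.65 in pair 2, and the slow and oxidative fibre median is below 0 in every pair except pair 2 (0.87).

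Between the sexes the 33 genes had a median difference in size of 0.18, against 0.16 over all named genes, and none passed the adjusted threshold. In a fit of the separate channels with genotype and dye as terms, 0 of 45 member probes had an adjusted limma p under 0.05, against 1.38% of all probes (0.515% higher and 0.866% lower in females). Without adjustment, 12 member probes, 26.7%, had a p under 0.05, against 22.9% of all probes. Of these 5 were higher in females, 11.1% of member probes against 11.2% of all, and 7 were lower, 15.6% against 11.7%, so the members' shares were near those of the array. Females and males did not overlap for 10 member probes, 22.2%, against 17.3% of all probes. Eif2s3y, a gene of the Y chromosome, checked the sex labels, at 5.997 to 6.36 in females, against 11.40 to 11.56 in males. Each sex lay on 2 arrays of its own, so sex and array cannot be told apart beyond the spread between those arrays.

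Of the genes with an unadjusted p under 0.05, Gpx3, Cat and Gstm2 had higher signal in females. Gpx3 ranged from 12.29 to 13.11 in females, against 10.99 to 11.89 in males. All females exceeded all males, and the log2 difference was 1.14 (SE 0.25), or 2.21-fold, with an adjusted limma p of 0.0668. Gstm2 ranged from 13.25 to 13.55 in females, against 12.29 to 13.03 in males, again without overlap, for a difference of 0.78 (SE 0.19, adjusted p = 0.0834), and its further probes gave 0.76 and 0.69. Cat ranged from 11.21 to 12.30 in females, against 9.67 to 11.06 in males. Its brighter probe gave a difference of 1.52 (SE 0.36, adjusted p = 0.0834), but the dimmer one gave −0.020, so the probes disagreed. Past the threshold were Gpx3 and Cat with median centring (adjusted p = 0.0310 and 0.0433), and Gpx3 also without the filter on dim probes (0.0475) or without the block by array (0.0414).

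Lower signal in females, at the same unadjusted limit, was found for Hmox1, Nqo1, Gclm, Sod1 and Prdx2. Hmox1 ranged from 8.50 to 8.81 in females, against 9.04 to 9.72 in males. No female reached the level of any male, and the difference was −0.64 (SE 0.15, adjusted p = 0.0807), although the further probe gave −0.17 and overlapped between the sexes. Nqo1 differed by −0.39 (adjusted p = 0.114), Gclm by −0.39 (0.137), Sod1 by −0.37 (0.135) and Prdx2 by −0.33 (0.112). Among these, females and males did not overlap for Hmox1, Nqo1, Sod1 and Prdx2 and did overlap for Gclm. The further probe of Prdx1 was also lower in females, by −0.48 (adjusted p = 0.0796), while its brighter probe gave −0.095. The further probe of Gsr was lower in females as well, by −0.31 (adjusted p = 0.215), but its brighter probe gave 0.059, so these probes disagreed in sign. Nfe2l2 and Keap1 gave −0.034 and −0.15. Blood markers were higher in females for 9 of 9 measured genes, with a median of 0.49. Markers of slow and oxidative fibres were higher for 9 of 13 with a median of 0.57, and 0 of either list passed the test. The 4 lower ones were Mb (−0.79), Ldhb (−0.19), Myh2 (−0.13) and Myoz2 (−0.078). The summed blood level was 15.6 to 18.7 in females, against 16.2 to 17.2 in males. The slow and oxidative fibre level was 15.1 to 17.2 in females, against 14.5 to 17.1 in males. The part of either list in the sex differences was not tested.

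**Figure D4:**
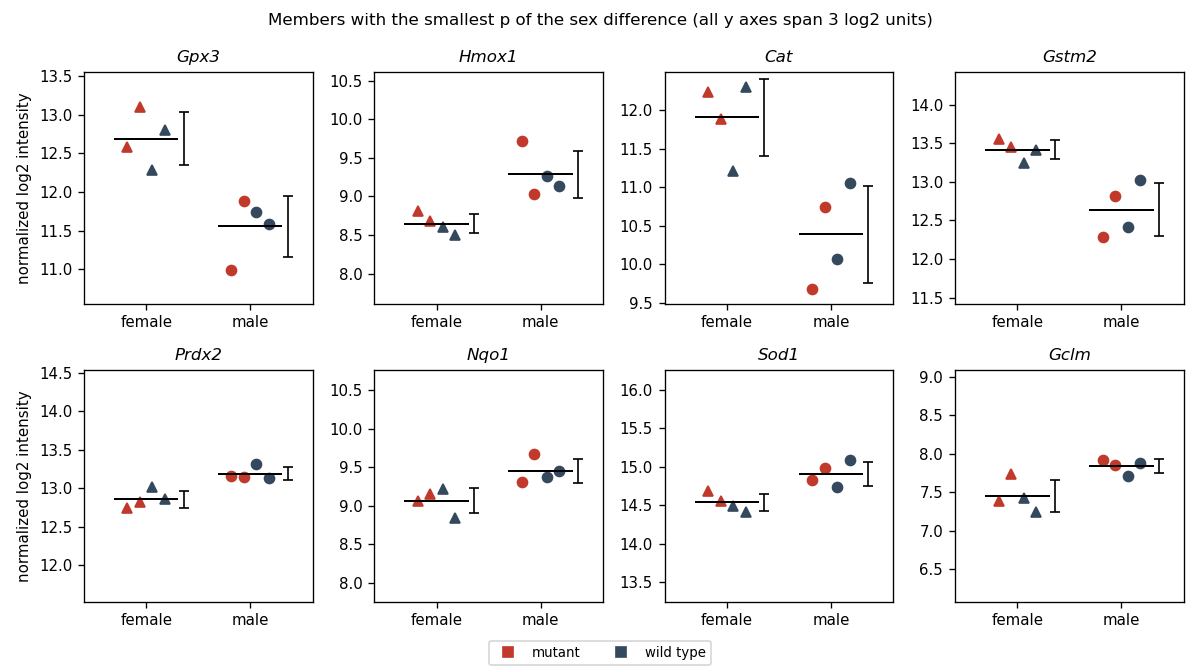
Normalized log2 intensity (vertical axis, each spanning 3 log2 units) of the 8 genes with the smallest p of the sex difference, females beside males, with mutants in red and wild types in dark blue; lines are the means and error bars the SD (n = 4 each). Gpx3, Cat and Gstm2 are higher in all females than in any male, and Hmox1, Nqo1, Prdx2 and Sod1 are lower.

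Whether the genotype ratio itself differed between the sexes was tested as an interaction. Of the member probes, 0 passed at an adjusted p under 0.05, as did 0% of all probes, and 0 had an unadjusted p under 0.05, against 2.19% of all. The smallest unadjusted p belonged to Txnip, whose ratio was lower in females than in males (female minus male −0.53 on the log2 scale, unadjusted limma p of 0.0592), and to Srxn1, whose ratio was higher in females (0.55, p of 0.0956). With 2 pairs in each sex these differences were not distinguishable from the spread between pairs.

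The wider pathway was counted from a list of 91 further genes of NRF2 control, the pentose phosphate route, glutathione transport, conjugation and thiol repair, of which 89 were on the array and 81 tested. Between genotypes 0 passed the adjusted threshold. Without adjustment 1 was higher in mutants and 2 lower, 3.70% of 81, against 3.35% of all probes. Tkt, transketolase of the pentose phosphate route, was the higher one, with log2 intensities of 9.63, 10.14, 9.84 and 9.83 in mutants 1 to 4, against 9.45, 10.04, 9.38 and 9.44 in wild types 1 to 4. The mutant exceeded its partner in 4 of 4 pairs although the groups overlapped, and the ratio was 0.28 (SE 0.11). Gstk1, a kappa-class transferase of mitochondria and peroxisomes, had a ratio of −0.27 (SE 0.095) and was lower in 4 of 4 pairs. Msrb2, a mitochondrial methionine sulfoxide reductase, had −0.24 (SE 0.091) and was lower in 3 of 4. Next by p came Msrb1, a selenoprotein reductase of methionine sulfoxide, at 0.40 (SE 0.17), Blvrb, biliverdin reductase B, at 0.33 (SE 0.16), and Txndc5, a thioredoxin-like protein of the endoplasmic reticulum, at −0.23 (SE 0.094).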

How the data were processed

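White gastrocnemius RNA of 8 mice was hybridised on 4 Agilent arrays of 2 colours on 1 slide. The deposited scanner files hold median spot and background intensity values, per the file headers, written by Agilent Feature Extraction 10.7.3.1 per the submitters' processing notes. Deposited beside them are other values, flags (0 or 1) that mark a spot as above background, saturated or outlying. The authors' deposited table holds log2 values, judged so from the values; each probe is centred on a median of 0, its differences follow the scanner's processed signals (correlations 0.975 to 0.994, slopes 0.949 to 1.00), its column medians lay between −0.018 and 0.034, and the sources used here do not state its normalization. It served as an alternative and had 0 columns from outside the series.

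Intensities were corrected with normexp (offset 50), turned to log2 ratios of mutant over wild type and normalized by loess within arrays, with control and outlier spots at weight 0 and then left out. The design named spot signals; medians were used. Probes were named by accession through a RefSeq gene table (27656 of 55681 probes named, 28025 unnamed). Probes well above background in at least 4 of 8 channels were tested (23098, of which 15081 named). Ratios were fitted in limma 3.58.1 (lmFit, eBayes; run in R 4.3.3 with the package data.table, version 1.17.8) with a dye term, the sex difference with lmscFit after Aquantile normalization (intraspot correlation 0.189), all p-values adjusted by Benjamini-Hochberg over all tested probes and called under 0.05. Standard errors (SE) are limma's moderated ones. The scripts were tested on simulated data. Median background was 43.5 to 50 in Cy3 and 139 to 142.5 in Cy5.

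The pairing is physical, since same-numbered animals shared an array; their deviations from the group means correlated at 0.66, 0.28, 0.060 and 0.64. The labels name individual animals, so the spread is between animals. Members and lists were chosen with earlier results of these data known. Every member is named; values of all 8 animals are given for the regulators and classical targets, the 5 smallest p in each direction, groups that do not overlap, the 3 widest pair ranges and the 4 smallest p of the sex difference, and further genes are named for the 3 smallest p in each direction or, for sex, because they passed. Alternatives changed the background correction, normalization, filter, dye term, block and probe summary, used the authors' table, and left out each pair.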

Additional observations from a re-analysis of the deposited data

Results flagged for a closer look

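In 132 groups of 4 animals (33 genes, by genotype and by sex), 3 values stood apart from the other 3 animals of their group. Chance alone flags about 1 in 20 groups, so 3 of 132 is below that share. The genotype and sex groups reuse the same animals, and the share over all probes was not computed. Nfe2l2 was 10.53 in mutant 1, against 10.21 to 10.22 in the other males. Prdx2 was 13.31 in wild type 1, against 13.14 to 13.16 in the other males. Sod3 was 9.30 in wild type 2, against 8.81 to 8.88 in the other wild types.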

How the results depend on the processing

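No member probe passed the adjusted threshold for genotype or for its difference between the sexes under any alternative tried. For genotype over all probes, the count of 0 became 23 when arrays were centred on their median instead of loess (2 higher and 21 lower in mutants), 5 without the filter on dim probes, 2 without the dye term, 3 with no replicate block, 4 with the replicate block as intraspot correlation, and 0 to 245 when 1 pair was left out. Pair 3 gave the 245 and pair 1 gave 5. For genotype, dropping the pairing by array moved no adjusted call among the members. Unadjusted p under 0.05 was reached by 0 to 3 member probes: Prdx4 and Gstm1 without the filter and with separate channels, Gstm1 with no replicate block, Cat and Gpx3 without pair 1, Srxn1 and Prdx4 without pair 2, and Cat and both Gstm1 probes without pair 3. The share of all probes under that limit was not computed for these settings, so the counts cannot be set against the array. For Gpx3, Srxn1 and Prdx4, and for Cat without pair 3, the left-out pair was the only one of its sign. The interaction count of 0 became 22 with median centring and 38 without the filter. For sex, 319 calls became 179 with the scanner's processed signals, 726 with median centring, 550 without the filter, 852 with no replicate block, and 16 to 247 without 1 pair; sex calls among the member probes were then 2 with median centring, 1 without the filter and 1 with no replicate block. The members' median of 0.012 moved to −0.070 with median centring, which moved the median of all probes to −0.064.

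Of 429 values of single genes, 381 kept their sign and their side of the threshold and 48 changed sign. Under median centring these were Glrx −0.029, Gpx3 −0.072, Gsr −0.066, Gstm2 −0.11, Gstp1 −0.027, Nqo1 −0.0039, Prdx3 −0.047, Prdx6 −0.093, Sod1 −0.012, Txn1 −0.013, Txn2 −0.080, Txnrd2 −0.070. With the processed signals they were Gpx3 −0.0033, Gsr −0.00072, Gstm2 −0.013. In the authors' deposited table they were Gsr −0.0024, Gstm2 −0.030, Txnrd1 0.010. With 1 pair left out the ratios ran, for genes that changed sign, as follows: Cat −0.38 to 0.32, Gclc −0.21 to 0.050, Glrx −0.058 to 0.14, Gpx1 −0.045 to 0.24, Gpx3 −0.22 to 0.30, Gsr −0.054 to 0.078, Gss −0.15 to 0.016. The next were Gstm2 −0.11 to 0.11, Gstp1 −0.013 to 0.14, Hmox2 −0.10 to 0.053, Keap1 −0.14 to 0.083, Nfe2l2 −0.057 to 0.24, Prdx3 −0.016 to 0.087, Prdx6 −0.070 to 0.076. The last were Sod3 −0.064 to 0.39, Srxn1 −0.031 to 0.44, Txn2 −0.019 to 0.033, Txnip −0.19 to 0.14, Txnrd1 −0.11 to 0.10, Txnrd2 −0.048 to 0.066. The cause of these changes was not tested. When 1 pair was left out, the other pair of that sex was assumed to vary like the rest, and the sex fit used the intraspot correlation of all 4 arrays. Genotype fits without 1 pair kept the dye term, so the pair alone in its dye orientation weighed as much as the others together. All 45 tested probes were above background in 8 of 8 animals. Averaging the probes of a gene was run for the members' median alone.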

Other observations

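Among the 81 further pathway genes tested, each by its brightest probe, 3 differed between the sexes past the adjusted threshold in limma, against 1.38% of all probes. Whether these 3 passed under the alternatives was not computed. Over all probes the 319 sex calls fell to 16 to 247 when 1 pair was left out. Sex and array cannot be told apart here either, beyond the spread between the arrays of each sex. Sesn1, a stress-induced sestrin, ranged from 10.49 to 11.03 in females, against 9.58 to 9.83 in males, a log2 difference of 1.02 (SE 0.16, adjusted p = 0.0303). Mgst1, a microsomal glutathione transferase, ranged from 8.54 to 9.19 in females, against 10.29 to 11.55 in males, a difference of −2.22 (SE 0.30, adjusted p = 0.0189). Mgst3, another microsomal transferase, ranged from 12.68 to 13.06 in females, against 13.20 to 13.68 in males, a difference of −0.63 (SE 0.11, adjusted p = 0.0414). None of the 3 overlapped between females and males, as held for 17.3% of all probes. They were picked by the sex test on these same values, so the lack of overlap is no separate evidence.

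The genotype ratio of Mgst1 was −1.17 and −0.89 in male pairs 1 and 2, and −0.17 and 0.53 in female pairs 3 and 4. The difference between the sexes in that ratio was 1.21 on the log2 scale (unadjusted limma p of 0.00248, adjusted p = 1.00), so it did not pass over all probes.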
